A study of Mus musculus with 16 samples.

Results

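The genes described here are 43 cytosolic and mitochondrial chaperones, their co-chaperones and the heat shock factors, a set listed by gene symbol. Earlier results of these data were known when the list was made. The genes fall into 8 classes, namely HSP70, HSP110, HSP90, HSP40, the chaperonin TRiC, the mitochondrial chaperones, the co-chaperones and the heat shock factors. 40 of the 43 had a probe set that names that gene alone, out of 18194 such genes on the array, and all 40 were among the 11452 genes bright enough to be tested. Hsp90ab1 and Hsf1 had no such probe set, and Ptges3, an HSP90 co-chaperone, was represented only by probe sets that name several genes, so these 3 have no value below.

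RNA came from mouse embryonic fibroblasts (MEF) of 2 genotypes, CHOP+/+ (wild-type) and CHOP-/- (knockout). CHOP, encoded by Ddit3, is a transcription factor of the integrated stress response. Each genotype was left untreated or exposed for 8 hours to 1 µM MG132, which blocks the proteasome, on 4 culture plates per group and 1 array per plate, 16 arrays in all. All cells grew in the same medium with serum, and the sample descriptions name DMSO for the untreated groups whose treatment field gives none. Nothing in the labels tells if plates of a genotype came from more than 1 embryo or isolation, and p-values here measure only the spread from plate to plate.

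Molecular chaperones bind unfolded proteins and help them fold, refold or reach the proteasome. HSP70 proteins do so in cycles of ATP binding that HSP40 proteins (J proteins) start and that HSP110 and BAG proteins reset by releasing the nucleotide, and HSP90 takes over a narrower set of clients from HSP70. When unfolded proteins accumulate, as they do when the proteasome is blocked, heat shock factor 1 is released from chaperones and forms a trimer. The trimer binds heat shock elements, which are inverted repeats of the unit GAA in the promoters of many heat-inducible genes.

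Values are MAS5 signal intensities of an Affymetrix 3' expression array, in arbitrary units, with 1 probe set per gene. Differences are log2(signal + 16), so that 1 means a doubling, with the standard error (SE) of a limma model across all tested genes and with Benjamini-Hochberg (BH) adjusted p-values, and folds are those differences on the linear scale. A gene is said to have risen or fallen where the adjusted p was below 0.05. Arrays of a group correlated at 0.985 to 0.992, the array medians lay between 90.11 and 113.4, and the 3' to 5' signal ratio of actin was 1.11 to 1.19 in untreated wild-type cells and 1.19 to 1.27 with MG132. In knockout cells it was 1.14 to 1.16 and 1.19 to 1.23. The same ratio of Gapdh was 0.833 to 0.875 untreated and 0.805 to 0.877 with MG132 in wild-type cells. In knockout cells the Gapdh ratio was 0.825 to 0.839 and 0.79 to 0.84. The part of these ratios in the results was not tested. Ddit3 itself gave 887, 1054, 998 and 1127 in untreated and 8181, 6891, 8087 and 7739 in treated wild-type cells, and lay between 342 and 430 on the 8 knockout arrays. The arrays therefore matched their labels, as far as this probe set can tell, since no source says whether its target was deleted.

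Heat shock elements were looked for as exact letters in RefSeq promoters (build GRCm38.p6), from 250 bases before to 50 bases after the annotated start, on both strands. 35 of the 43 genes had an entry in the promoter table, and Hspa8, St13, Hspa9, Bag4, Hsp90aa1, Hsp90ab1, Cct4 and Hsf1 had none. A run of 3 alternating units (GAA and TTC in turn, with any 2 bases between neighbours) was present in 5 of the 35 genes (14.3%), against 0.662% of the 27025 genes with a promoter of the same length. A pair of units (GAANNTTC or TTCNNGAA), which every longer run contains, was present in 15 of 35 (42.9%), against 17% of all genes. The 5 genes with a run of 3 or more were Hspd1, Hspe1, Dnajb6, Hsph1 and Chordc1. Their sites are printed because they show how the same repeat sits in chaperones of different classes, with the units in capitals, and that of Hsph1 starts 16 bases after its annotated start.
Hspe1 (chr1:55088053-55088082, plus strand): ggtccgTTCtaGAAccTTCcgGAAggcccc
Dnajb6 (chr5:29735844-29735872, plus strand): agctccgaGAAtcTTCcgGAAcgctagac
Hsph1 (chr5:149636280-149636308, minus strand): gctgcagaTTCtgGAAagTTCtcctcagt
Chordc1 (chr9:18292260-18292288, plus strand): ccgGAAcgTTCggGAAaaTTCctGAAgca

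Hspd1, which encodes the mitochondrial chaperonin HSP60, and Hspe1, which encodes its lid HSP10, are neighbours, and the site of Hspe1 read from the other strand is the site of Hspd1. It starts 89 bases before the start of Hspe1 and 144 bases before that of Hspd1. The site of Chordc1 holds 5 alternating units and spans its annotated start, from base -4 to base 19. Hspa1a and Hspa1b, the stress-inducible HSP70 genes, are neighbours on chromosome 17 and have nearly the same promoter, identical at 247 of the 250 bases before the start (98.8%). The 120 bases before each start are printed because they show how alike the promoters of these inducible genes are. They hold 1 pair of units, in capitals, and differ by T119G (Hspa1a first, counted from 1 at the 5' end of the printed run).
Hspa1a (chr17:34972157-34972276, minus strand): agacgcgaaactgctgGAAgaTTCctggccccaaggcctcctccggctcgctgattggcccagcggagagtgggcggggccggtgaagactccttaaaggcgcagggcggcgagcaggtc
Hspa1b (chr17:34959239-34959358, minus strand): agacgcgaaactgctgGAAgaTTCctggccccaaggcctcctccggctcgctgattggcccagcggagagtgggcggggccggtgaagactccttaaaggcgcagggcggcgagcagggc

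Dnaja4 and Dnajb4, the genes with the largest shortfall of the response in knockout cells, had pairs of units and no run of 3. Dnaja4 had 2 pairs, which start 90 and 52 bases before its start, and the pair of Dnajb4 starts 14 bases before its start.
Dnaja4, upstream pair (chr9:54699458-54699487, plus strand): ggaacctccgcGAAcgTTCtgggcctatgt
Dnaja4, downstream pair (chr9:54699496-54699525, plus strand): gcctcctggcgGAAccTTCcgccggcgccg
Dnajb4 (chr3:152193841-152193870, minus strand): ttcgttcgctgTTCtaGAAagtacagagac

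A match of letters is a description of the sequence and shows no binding. The 5 genes with 3 or more units had wild-type responses between 0.41 and 2.23 on the log2 scale, with a median of 0.70. The 15 genes with at least a pair lay between -0.01 and 4.89 (median 0.75), and the 19 tested genes with a promoter entry and no pair lay between -0.50 and 1.85 (median 0.35). The ranges of the genes with and without a pair overlap, and genes without a match include Dnajb1, which rose by 1.85.

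The first question was how the chaperone genes respond to MG132 in wild-type cells. 34 of the 40 rose, 2 fell and 4 did not pass the test. This is 85% higher and 5% lower, against 27.2% higher and 36.9% lower among all tested genes. The median difference was 0.42 for the chaperone genes and -0.07 for all genes. 8 of the 40 rose at least 2-fold, against 4.08% of all genes, and these were Hspa1a, Hspa1b, Hsph1, Dnaja4, Dnajb1, Dnajb2, Dnajb4 and Chordc1.

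In knockout cells 32 of the 40 rose, 3 fell and 5 did not pass, which is 80% higher and 7.5% lower, against 25.7% and 36.8% of all tested genes. The median was 0.36, against -0.07 for all genes. 9 genes rose at least 2-fold, against 3.05% of all genes, the same 8 and Hspa4l. 32 of the 40 genes rose in both genotypes and 2, Dnaja3 and Bag4, fell in both. Of all 11452 tested genes, 2147 rose in both and 3184 fell in both. Across the 40 genes the responses of both genotypes correlated at 0.962 (Pearson) and 0.96 (Spearman), and across all 11452 tested genes at 0.733 and 0.727. This is a description, since genes are not independent replicates.

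When each array was centred on the median of the tested genes, a setting chosen after seeing the data, the median of all genes moved by 0.20 for wild-type and by 0.14 for knockout cells. The share of higher genes among all calls then went from 42.4% to 61.6% and from 41.2% to 55.8%, and the median of the chaperone genes went to 0.63 and 0.51. Quantile normalisation lowered the median of the chaperone genes to 0.31 in wild-type and 0.2 in knockout cells, against -0.05 and -0.03 for all genes. Centring each array on its own median gave 0.37 and 0.41 for the chaperone genes, against -0.12 and -0.03. In bulk RNA, a change in the number of cells of a type and a change of RNA per cell cannot be told apart.

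**Figure D1:**
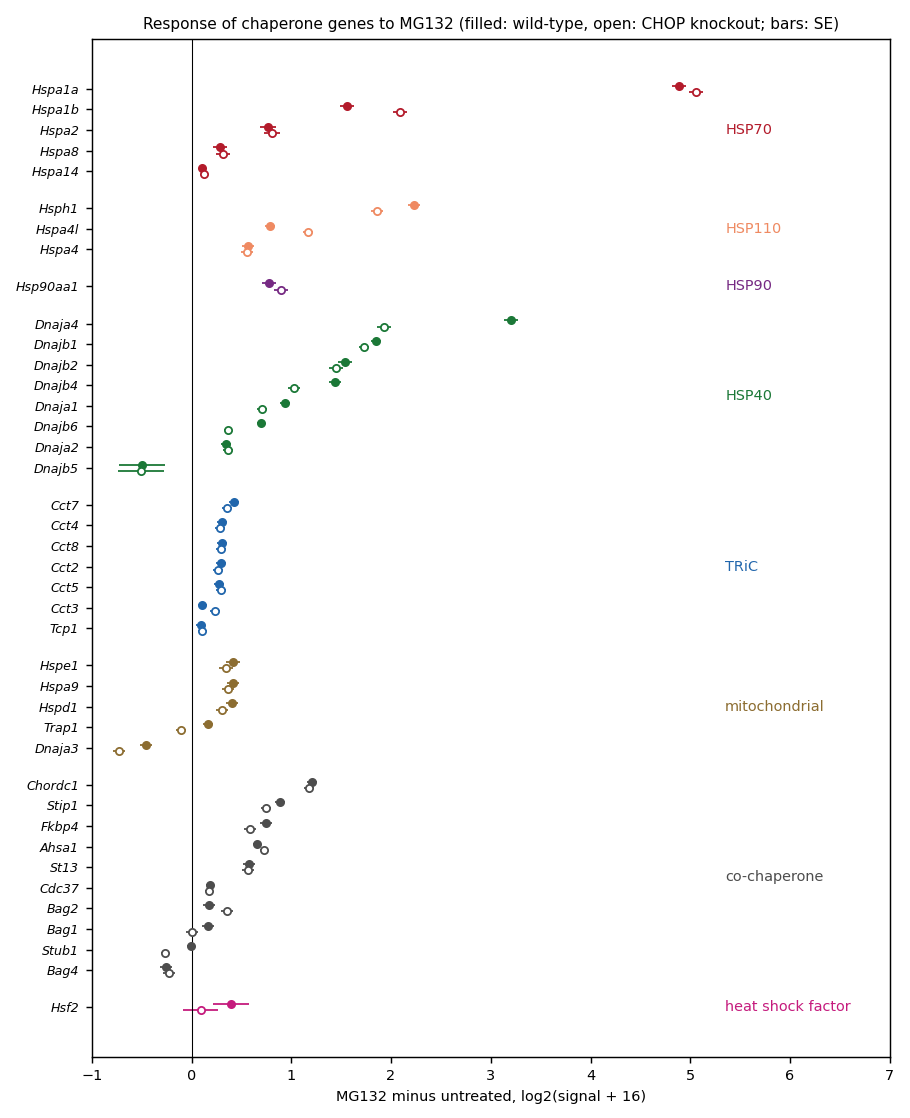
Response to MG132 of the 40 chaperone genes, by class, as the difference between treated and untreated cells in log2(signal + 16) (x axis), with filled points for wild-type and open points for CHOP knockout cells, 4 arrays per group, and bars for the SE. Hspa1a stands at 4.89 and 5.06, whereas the TRiC subunits stay between 0.09 and 0.43.

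All 5 HSP70 genes rose in both genotypes, against 2147 of all 11452 tested genes. Their responses ranged from 0.11 to 4.89 in wild-type and from 0.13 to 5.06 in knockout cells. Hspa1a, a stress-inducible HSP70, gave signals of 1371, 1206, 1098 and 1157 in untreated and 35908, 33159, 39661 and 36614 in treated wild-type cells. In knockout cells it gave 738, 710, 745 and 658 without and 23059, 23746, 25960 and 24171 with MG132. All treated arrays lay far above all untreated arrays, and in both conditions every knockout array lay below every wild-type array. The rise was 29.7-fold in wild-type (4.89, SE 0.07, limma adjusted p = 1.7e-21) and 33.4-fold in knockout cells (5.06, SE 0.07, adjusted p = 9.29e-22). The responses differed by 0.16 (SE 0.09, 95% interval -0.03 to 0.36, adjusted p = 0.213).

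Hspa1b, its near-identical neighbour, gave 13069, 14456, 14158 and 12337 in untreated and 39250, 35472, 45227 and 39980 in treated wild-type cells. The knockout arrays were at 9341, 10788, 9800 and 9344 without and 41087, 41050, 42909 and 41545 with MG132. Untreated knockout cells thus lay below untreated wild-type cells on every array, and the treated groups overlapped. The rise was 2.95-fold in wild-type and 4.26-fold in knockout cells, and the knockout response was higher by 0.52 (SE 0.09, adjusted p = 0.000261). One of the other probe sets of Hspa1b, 1427126_at, gave a difference of 0.57 (SE 0.12, adjusted p = 0.00217 in a fit of all 21664 probe sets that passed the same filter). The other, 1452318_a_at, gave 0.20 (SE 0.11, adjusted p = 0.183). The size of the rise also varied by probe set. On the log2 scale it was 1.56 in wild-type and 2.09 in knockout cells for the brightest one. For 1427126_at it was 2.34 and 2.91, and for 1452318_a_at 1.68 and 1.88. Because the transcripts of Hspa1a and Hspa1b are near copies, probes of one can take up RNA of the other, which was not tested, and the values of either gene are uncertain to that extent.

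The other HSP70 genes changed less. Hspa2, an HSP70 best known from the testis, rose by 0.77 and 0.81 (SE 0.08 each) from means of 620.1 ± 50.3 (SD, n = 4) and 392.1 ± 17.5 in untreated wild-type and knockout cells. Hspa8, the constitutive HSC70, rose by 0.29 and 0.32 (SE 0.07 each), from 39990 ± 4360 to 48980 ± 4220 in wild-type cells, whose arrays overlapped. Its other probe sets all rose more. Of the bright ones, 1420622_a_at rose by 0.64 and 0.80 (SE 0.06 each) and 1420623_x_at by 0.44 and 0.46 (SE 0.07 each). The dimmest, 1431182_at, rose by 1.81 (SE 0.10) in wild-type and 1.36 (SE 0.10) in knockout cells. Hspa14, a ribosome-associated HSP70, rose by 0.11 and 0.13 (SE 0.04 each, adjusted p = 0.0386 and 0.0176). Neither call held when arrays were centred on their own medians, which gave 0.057 (adjusted p = 0.521) and 0.169 (adjusted p = 0.0515). The wild-type call also ended without any 1 of 6 wild-type arrays (lowest value 0.085, without treated replicate 1), and the knockout call without untreated replicate 2 (0.11) or treated replicate 1 (0.108).

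HSP110 proteins release the nucleotide from HSP70, and all 3 genes rose in both genotypes, against 2147 of all 11452 tested genes. Hsph1 gave 8715, 8308, 8968 and 7927 in untreated and 39186, 36558, 44336 and 39123 in treated wild-type cells. In knockout cells it gave 9539, 9434, 9110 and 10240 without and 36458, 32764, 37163 and 33422 with MG132. The treated arrays of either genotype did not overlap with its untreated arrays. The rise was 4.69-fold in wild-type (2.23, SE 0.06) and 3.63-fold in knockout cells (1.86, SE 0.06), a difference of -0.36 (SE 0.08, adjusted p = 0.00277). With arrays centred on their medians this difference was -0.269 (adjusted p = 0.0535), and its second probe set, 1425993_a_at, gave -0.12 (SE 0.07, adjusted p = 0.237).

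Hspa4l, a close relative of Hsph1, went the other way. It gave 5620, 5381, 5373 and 5979 in untreated and 9564, 9993, 10134 and 9100 in treated wild-type cells, whereas the knockout gave 6147, 5950, 6526 and 6190 against 14275, 13963, 13820 and 13761. Every treated knockout array lay above every treated wild-type array. The rises of 0.79 and 1.17 (SE 0.05 each) differed by 0.37 (SE 0.07, adjusted p = 0.000247). The difference was seen in this probe set only, since its 4 dimmer probe sets gave -0.08 to 0.10 with no adjusted p under 0.589, and it was 0.089 (adjusted p = 0.513) for the mean of all 5. Hspa4 rose by 0.57 and 0.56 (SE 0.06 each) in its brightest probe set, and the responses differed by 0.00 (SE 0.08, 95% interval -0.17 to 0.16). Its dimmer tested probe sets, 1416147_at and 1435194_at, rose in wild-type cells only. In knockout cells they gave 0.08 (adjusted p = 0.745) and 0.12 (adjusted p = 0.478). The mean of all probe sets of Hspa4 ended the knockout rise (0.167, adjusted p = 0.221). With that mean the knockout response was lower than the wild-type response (-0.535, adjusted p = 0.0197).

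Hsp90aa1, the inducible HSP90 of the cytosol, rose in both genotypes. It gave 26315, 27544, 31327 and 28012 in untreated and 47103, 43382, 56197 and 48699 in treated wild-type cells. The knockout values were 25983, 24567, 25683 and 23645 against 49402, 45550, 46090 and 44925. Treated and untreated arrays did not overlap, and the rise was 1.72-fold (0.78, SE 0.07) and 1.87-fold (0.90, SE 0.07). The responses differed by 0.11 (SE 0.09, 95% interval -0.08 to 0.31), and quantile normalisation turned this into a call of 0.144 (adjusted p = 0.0463).

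7 of the 8 HSP40 genes rose in both genotypes, 4 of them at least 2-fold in each. Of all 11452 tested genes, 2147 rose in both. At least 2-fold rises were found for 4.08% of all tested genes in wild-type and 3.05% in knockout cells. HSP40 proteins deliver clients to HSP70 and set off its ATP hydrolysis. Dnaja4, a cytosolic type A member, gave 624, 841, 720 and 704 in untreated and 6863, 6934, 6676 and 6490 in treated wild-type cells. In knockout cells it gave 730, 813, 827 and 795 without and 2800, 3218, 3202 and 3030 with MG132. The untreated groups overlapped, whereas every treated knockout array (at most 3218) lay far below every treated wild-type array (at least 6490).

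The rise of Dnaja4 was 9.19-fold in wild-type (3.20, SE 0.07, adjusted p = 4.94e-18) and 3.81-fold in knockout cells (1.93, SE 0.07, adjusted p = 1.46e-14). The difference of -1.27 (SE 0.10, adjusted p = 2.66e-08) was the only one of the 40 beyond 2-fold. Its other probe sets gave -1.39 (SE 0.11) and -1.25 (SE 0.11), both past the threshold.

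Dnajb4, a type B member related to Dnajb1, gave 6302, 6824, 7118 and 6094 in untreated and 18823, 16898, 19413 and 16562 in treated wild-type cells. Knockout cells gave 4082, 3642, 3778 and 3766 against 8135, 7859, 7504 and 7693. The knockout arrays lay below the wild-type arrays in both conditions. The rise was 2.71-fold (1.44, SE 0.06) and 2.04-fold (1.03, SE 0.06), and the difference was -0.41 (SE 0.08, adjusted p = 0.000852), with -0.54 (SE 0.13, adjusted p = 0.00549) from its second tested probe set. The mean of all its probe sets, which includes one too dim to test, gave -0.241 (adjusted p = 0.171).

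Dnajb6, known for holding back aggregation of polyglutamine proteins, gave 10062, 10049, 10492 and 10488 in untreated and 16508, 17201, 16319 and 16735 in treated wild-type cells. Knockout cells gave 12226, 12828, 13146 and 13265 against 16890, 16104, 17402 and 16056. The knockout cells started higher and the treated groups overlapped. The rises of 0.70 and 0.37 (SE 0.04 each) differed by -0.33 (SE 0.06, adjusted p = 0.000234). Probe set 1434035_at went the opposite way, with a difference of 0.49 (SE 0.07, adjusted p = 8.58e-05), and neither the mean of all probe sets (-0.16, adjusted p = 0.108) nor centring on array medians (-0.238, adjusted p = 0.0929) passed.

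Dnaja1, a main HSP40 partner of HSC70, gave 18722, 20320, 20957 and 19443 in untreated and 39886, 35030, 40368 and 37156 in treated wild-type cells. Knockout cells gave 19883, 20353, 20974 and 18634 against 31799, 32011, 33108 and 33416. The untreated groups overlapped, and each treated knockout array lay below each treated wild-type array. The rises of 0.94 and 0.71 (SE 0.05 each) differed by -0.23 (SE 0.07, adjusted p = 0.02). Its dimmer probe sets gave larger differences, -1.05 (SE 0.06) for 1460179_at and -0.81 (SE 0.09) for 1459835_s_at. Centring on array medians reduced the difference to -0.138 (adjusted p = 0.201).

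The remaining HSP40 genes showed no call in the difference between responses. Dnajb1, the classical heat-inducible HSP40, rose 3.61-fold and 3.32-fold, from 8473 ± 671 to 30620 ± 1010 in wild-type and from 8208 ± 433 to 27240 ± 495 in knockout cells (difference -0.12, 95% interval -0.28 to 0.03). Dnajb2, which binds ubiquitin chains, rose 2.91-fold and 2.73-fold (difference -0.09, 95% interval -0.29 to 0.11). Dnaja2 rose by 0.35 and 0.37 (difference 0.02, 95% interval -0.12 to 0.15). Dnajb5 gave -0.50 and -0.51 (SE 0.23 each, adjusted p = 0.0629 and 0.0574), with overlapping arrays at signals of 173 to 466. It passed as a fall in knockout cells without untreated wild-type replicate 1 or treated wild-type replicate 3 (-0.513 in both), untreated knockout replicate 4 (-0.758) or treated knockout replicate 3 (-0.611). In wild-type cells it passed without untreated replicate 1 (-0.629), treated replicate 4 (-0.621) or untreated knockout replicate 4 (-0.5).

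In total, 4 of the 8 HSP40 genes rose less in knockout cells and 0 rose more (limma, BH; 0 more also at an unadjusted p under 0.05). The background for this comparison was 14.1% of all tested genes with a lower and 14.2% with a higher knockout response. After centring on array medians, 2 of the 4, Dnaja4 and Dnajb4, remained past the threshold.

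**Figure D2:**
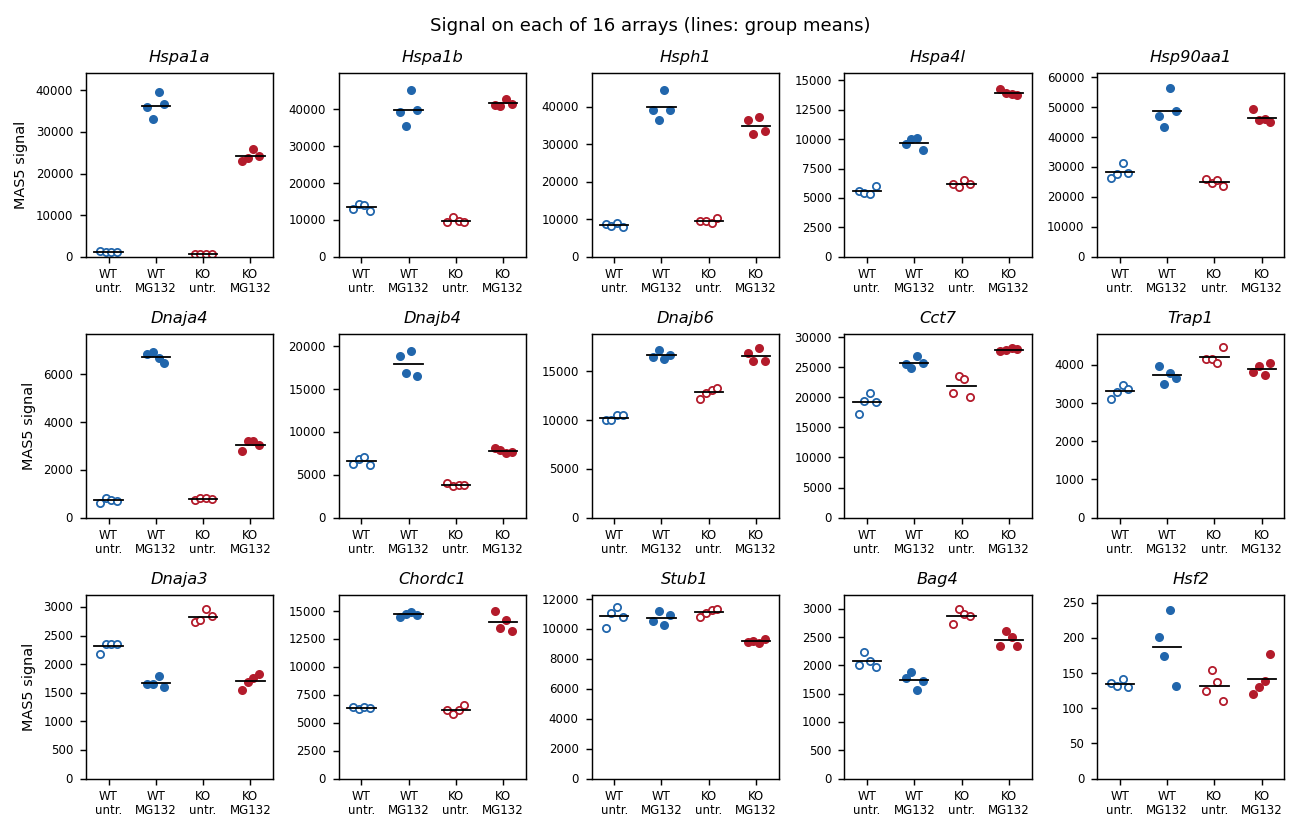
MAS5 signal (y axis, from 0) of 15 chaperone genes on each of the 16 arrays, by group, blue for wild-type and red for knockout cells, open points for untreated and filled points for MG132, with lines at the group means. Treated knockout arrays of Dnaja4 (2800 to 3218) and Dnajb4 (7504 to 8135) lie below the treated wild-type arrays, and those of Hspa4l (13761 to 14275) lie above them.

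The chaperonin TRiC is a ring of different CCT subunits that folds actin and tubulin. Its 7 listed genes moved little and together: 6 rose in each genotype, with all 7 differences above 0, at medians of 0.30 and 0.29. Among all tested genes, 27.2% rose in wild-type and 25.7% in knockout cells. Cct7, the subunit with the largest change, gave 17296, 19442, 20634 and 19226 in untreated and 25500, 24772, 26907 and 25763 in treated wild-type cells. Knockout cells gave 20690, 23477, 22972 and 20039 against 27637, 27772, 28212 and 28043. Treated arrays lay above untreated arrays in both genotypes, and the rises were 1.35-fold (0.43, SE 0.05) and 1.28-fold (0.36, SE 0.05).

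Cct2, Cct4, Cct5 and Cct8 rose by 0.28 to 0.31 in wild-type and by 0.27 to 0.30 in knockout cells. Tcp1, the first subunit described, gave 0.09 and 0.11 (SE 0.05 each, adjusted p = 0.156 and 0.089). Cct3 passed in wild-type cells at 0.11 (SE 0.05, adjusted p = 0.0477) and rose by 0.24 (SE 0.05) in knockout cells. Both small wild-type values turned with quantile normalisation, to -0.073 for Tcp1 (adjusted p = 0.0225) and -0.056 for Cct3 (adjusted p = 0.111). Tcp1 passed as a rise in wild-type cells without untreated replicate 3 (0.138) and in knockout cells without untreated wild-type replicate 1 or 3 (0.105 in both), and the wild-type call of Cct3 ended without any 1 of 11 arrays (lowest value 0.079, without untreated replicate 1). 0 of the 7 TRiC genes differed between the genotypes in their response (limma, BH, and 0 also at an unadjusted p under 0.05). Among all tested genes, 14.2% had a higher and 14.1% a lower knockout response. The differences of the 7 TRiC genes lay between -0.07 and 0.13, and their 95% intervals reached from -0.23 for Cct7 to 0.27 for Cct3. Cct3 passed as a higher knockout response with arrays centred on their medians (0.224, adjusted p = 0.0347) and with quantile normalisation (0.124, adjusted p = 0.0339), and Cct4 as a lower one with the mean of all probe sets (-0.415, adjusted p = 0.000852).

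Among the mitochondrial chaperones, Hspd1, Hspe1 and Hspa9 rose in both genotypes, Dnaja3 fell in both, and Trap1 rose in wild-type cells. Hspd1 and Hspe1, which share the promoter region printed above, rose by 0.41 (SE 0.06) and 0.42 (SE 0.07) in wild-type and by 0.31 (SE 0.06) and 0.35 (SE 0.07) in knockout cells. Hspa9, the mitochondrial HSP70 that drives protein import, rose by 0.42 and 0.37 (SE 0.06 each). It lay higher in knockout cells in both conditions, at 24040 ± 460 against 19620 ± 1470 untreated and 31210 ± 2900 against 26280 ± 1220 treated (SD, n = 4). Its second brightest probe set, 1418503_at, gave a knockout minus wild-type difference of -0.01 in both conditions (SE 0.05 each, limma adjusted p = 0.926 and 0.844). The dimmer ones gave 0.62 and 0.55 (1431274_a_at), 0.22 and 0.39 (1447728_x_at) and 0.42 and 0.13 (1453811_at). Of these, 1431274_a_at passed in both conditions and 1447728_x_at with MG132.

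Dnaja3, the mitochondrial HSP40 that works with Hspa9, gave 2182, 2356, 2360 and 2345 in untreated and 1649, 1647, 1799 and 1596 in treated wild-type cells. Knockout cells gave 2746, 2779, 2958 and 2836 against 1546, 1688, 1761 and 1825. The untreated knockout arrays were the highest, and the treated groups overlapped. The falls were -0.46 and -0.73 (SE 0.06 each), with a difference of -0.26 (SE 0.08, adjusted p = 0.0199). Its dimmer tested probe set, 1420629_a_at, gave -0.03 (SE 0.07, adjusted p = 0.72) in wild-type and -0.65 (SE 0.07) in knockout cells. Centring on array medians ended the call of the difference (-0.171, adjusted p = 0.324) and kept its direction.

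Trap1, the mitochondrial HSP90, gave 3097, 3292, 3487 and 3358 in untreated and 3980, 3494, 3783 and 3652 in treated wild-type cells. Knockout cells gave 4163, 4163, 4053 and 4467 against 3803, 3967, 3737 and 4046. The treated arrays lay above the untreated arrays in wild-type and below them in knockout cells. The rise was 0.17 (SE 0.05, adjusted p = 0.0071) in wild-type cells, and the knockout difference was -0.11 (SE 0.05, adjusted p = 0.0623), which passed without untreated wild-type replicate 1 (-0.114, adjusted p = 0.0461) or treated knockout replicate 4 (-0.134, adjusted p = 0.0485). The responses differed by -0.29 (SE 0.07, adjusted p = 0.00614), but not past the threshold with arrays centred on their medians (-0.192, adjusted p = 0.249), which also ended the wild-type call (0.121, adjusted p = 0.203). The second probe set, 1437379_x_at, gave -0.05 (SE 0.09, adjusted p = 0.702) in wild-type cells and a difference of -0.09 (SE 0.13, adjusted p = 0.693). The mean of both ended both calls, at 0.062 (adjusted p = 0.411) and -0.186 (adjusted p = 0.14).

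Of the 10 measured co-chaperones, 8 rose and 1 fell in wild-type cells, against 27.2% and 36.9% of all tested genes, and 7 rose and 2 fell in knockout cells, against 25.7% and 36.8%. Chordc1, an HSP90-binding protein whose promoter holds 5 alternating units, gave 6428, 6273, 6450 and 6288 in untreated and 14500, 14765, 14905 and 14622 in treated wild-type cells. Knockout cells gave 6164, 5790, 6140 and 6556 against 15048, 13525, 14228 and 13247. The genotypes overlapped in both conditions. The rise was 2.31-fold (1.21, SE 0.05) and 2.27-fold (1.18, SE 0.05), and the difference between them was -0.02 (SE 0.06, 95% interval -0.16 to 0.11).

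The other co-chaperones of the HSP70 to HSP90 relay rose less. Stip1, which joins both chaperones, rose by 0.89 and 0.75 (SE 0.05 each). Fkbp4, an immunophilin of steroid receptor complexes, rose by 0.75 and 0.59 (SE 0.06 each), Ahsa1, which speeds up the HSP90 ATPase, by 0.66 and 0.73 (SE 0.04 each), and St13 (Hip), which steadies the HSP70-client complex, by 0.58 and 0.57 (SE 0.06 each). The rise of Fkbp4 did not pass with the probe set used when those with a suffix for shared or similar sequences were left out (0.431, adjusted p = 0.167, and 0.214, adjusted p = 0.511, at a mean signal of 132.6), and its difference between responses of -0.16 (adjusted p = 0.15) passed without treated knockout replicate 4 (-0.21). Cdc37, which brings protein kinases to HSP90, rose by 0.19 and 0.18 (SE 0.04 each).

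The BAG proteins, which release clients from HSP70, and the ubiquitin ligase Stub1 (CHIP), which passes clients of HSP70 on to the proteasome, had smaller or opposite changes. Bag4 gave 2009, 2241, 2083 and 1978 in untreated and 1774, 1888, 1568 and 1720 in treated wild-type cells, whereas the knockout gave 2738, 2989, 2900 and 2866 against 2338, 2603, 2505 and 2343. All knockout arrays lay above all wild-type arrays. The falls of -0.26 and -0.23 (SE 0.06 each, adjusted p = 0.00105 and 0.0027) did not pass after centring on the median of the tested genes (-0.054, adjusted p = 0.471, and -0.086, adjusted p = 0.247). The knockout fall also did not pass with arrays centred on their own medians (-0.188, adjusted p = 0.0784). The other tested probe sets of Bag4, 1418707_at and 1439024_at, gave -0.04 (adjusted p = 0.737) and -0.02 (adjusted p = 0.887) in wild-type cells, and the mean of all gave -0.104 (adjusted p = 0.128). In knockout cells both fell, by 0.26 (adjusted p = 0.00987) and 0.41 (adjusted p = 0.00322).

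Stub1 gave 10043, 11056, 11457 and 10810 in untreated and 10515, 11214, 10275 and 10962 in treated wild-type cells, which overlapped. Knockout cells gave 10779, 11058, 11266 and 11342 against 9105, 9210, 9070 and 9340, so that the treated arrays lay below all others. The wild-type difference was -0.01 (SE 0.04, adjusted p = 0.819) and the knockout fall -0.27 (SE 0.04, adjusted p = 1.53e-05). With arrays centred on the median of the tested genes the wild-type value passed as a rise (0.191, adjusted p = 0.00437). The difference of -0.26 (SE 0.06, adjusted p = 0.00321) was -0.36 (SE 0.11, adjusted p = 0.0211) in the second probe set and did not pass with arrays centred on their medians (-0.169, adjusted p = 0.242). Bag1 rose by 0.17 (SE 0.06, adjusted p = 0.012) in wild-type cells and gave 0.00 (SE 0.06, adjusted p = 0.981) in knockout cells, and Bag2 rose by 0.18 and 0.36 (SE 0.06 each). The wild-type rises of both did not pass with arrays centred on their medians (0.119 and 0.134), or without 1 array, treated replicate 1 for Bag1 (0.114, adjusted p = 0.0635) and untreated replicate 4 for Bag2 (0.132, adjusted p = 0.0585). Neither difference between the genotypes passed, at -0.17 (adjusted p = 0.123) for Bag1 and 0.17 (adjusted p = 0.142) for Bag2. That of Bag1 passed without treated wild-type replicate 3 (-0.226) and that of Bag2 without untreated wild-type replicate 4 (0.224).

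Hsf2, a heat shock factor that can bind the same elements as Hsf1, was the dimmest of the genes. It gave 136, 131, 142 and 130 in untreated and 202, 174, 240 and 132 in treated wild-type cells, whereas the knockout gave 124, 155, 137 and 111 against 120, 130, 139 and 177. The groups overlapped in each genotype. The differences of 0.40 (SE 0.18, adjusted p = 0.0624) and 0.09 (SE 0.18, adjusted p = 0.693) did not pass, and the wild-type value passed without treated replicate 4 (0.542, adjusted p = 0.0147).

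The title of the series asks which genes respond to proteasome inhibition in a way that depends on CHOP. Over all chaperone genes, the response was higher in knockout cells for 2 of 40 (5%), Hspa1b and Hspa4l, against 14.2% of all tested genes, and lower for 8 of 40 (20%), against 14.1%. The 8 were Dnaja4, Dnajb4, Hsph1, Dnajb6, Trap1, Dnaja3, Stub1 and Dnaja1. The median size of the difference, in either direction, was 0.10 for the chaperone genes and 0.23 for all genes. With arrays centred on their own medians, which moved the median of all genes in this comparison by 0.09 and the share of higher genes among all calls from 50.1% to 69.7%, 2 chaperone genes were lower, Dnaja4 and Dnajb4. Centring on the median of the tested genes moved that share to 38.6%.

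**Figure D3:**
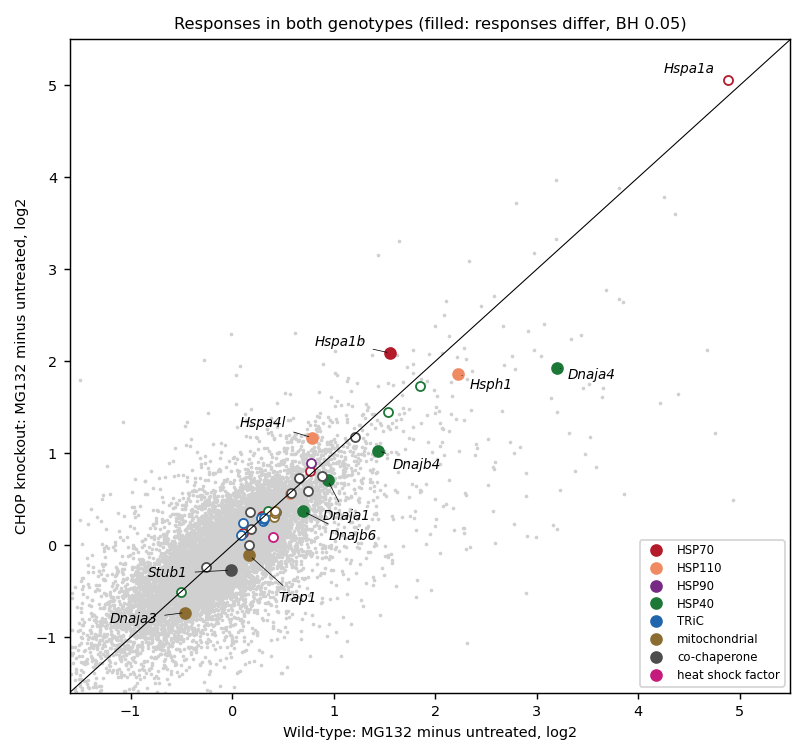
Response to MG132 in wild-type (x axis) and knockout cells (y axis), both as differences in log2(signal + 16), for the chaperone genes by class, filled where the responses differed (BH 0.05) and open where that test was not passed, over all tested genes in grey, with the line of equal response. Genes outside the range from -1.6 to 5.5 are not drawn. Most chaperone genes lie along the line, and Dnaja4 (3.20 against 1.93) lies farthest below it.

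The choice of probe set bore on these differences more than on the rises themselves. The 40 genes had 108 single-gene probe sets, of which 100 passed the filter, and 28 genes had more than 1 that did. For the genes called in the wild-type response, 43 of 57 further probe sets were called in the same direction, 1 in the opposite direction and 13 were not called. For the 10 genes whose responses differed, 9 of 18 further probe sets were called in the same direction, 1 in the opposite and 8 were not called.

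35 of the 43 further probe sets called in the same direction in the wild-type response gave a larger change than the brightest one. 12 of the 40 genes had a brightest probe set whose mean lay above the 99th percentile of the arrays, whose highest signals were 48060 to 67210, and the deposited table does not mark saturated probes. The part of signal height in the size of the changes was not tested. Some genes with no called difference had dimmer probe sets with one: Hspa4 gave -0.98 (SE 0.28, adjusted p = 0.0145) and -0.66 (SE 0.19, adjusted p = 0.0157), Cct4 gave -1.94 (SE 0.23) and -1.10 (SE 0.22) at mean signals of 314.1 and 482.8, and Hspe1 gave -0.41 (SE 0.14, adjusted p = 0.0368).

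**Figure D4:**
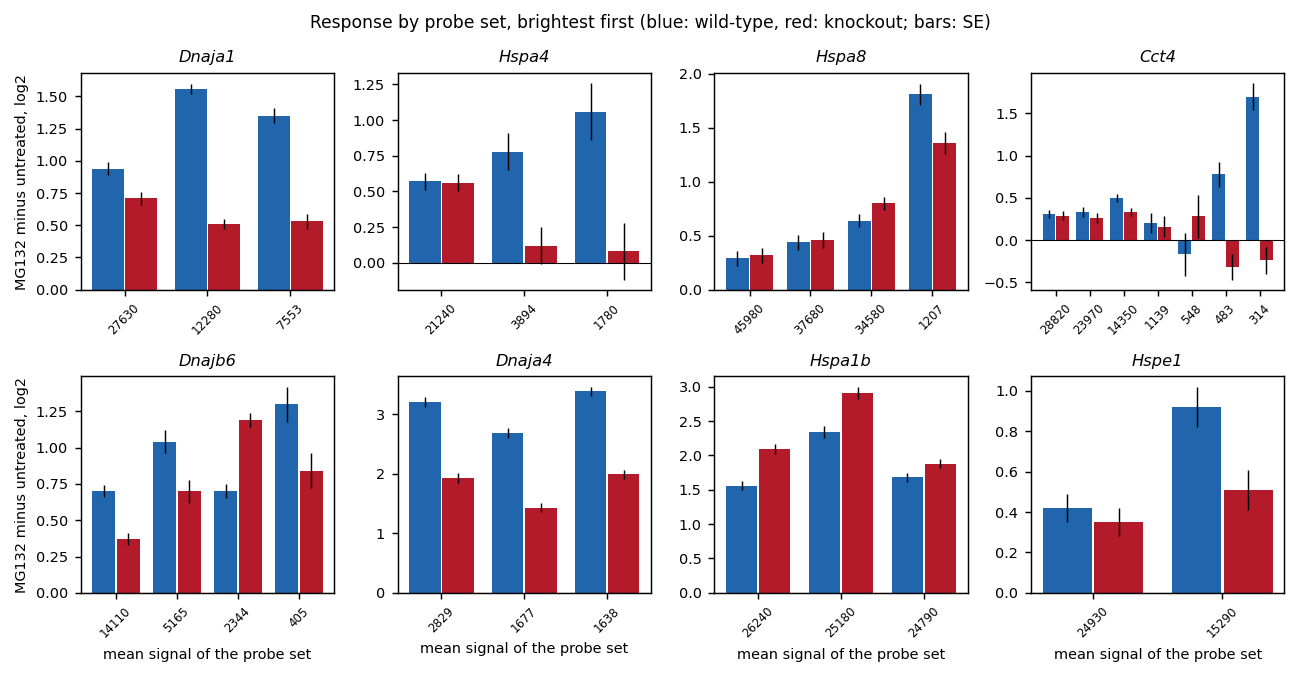
Response to MG132, in log2(signal + 16), of each tested single-gene probe set of 8 chaperone genes, from the brightest (left) to the dimmest, labelled by mean signal over 16 arrays, with blue bars for wild-type, red bars for knockout cells and lines for the SE. The 3 probe sets of Dnaja4 show the same order of genotypes, whereas those of Cct4 and Dnajb6 do not, and those of Hspa4 differ in the size of the gap.

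Genotypes were also compared within each treatment. In untreated cells 14 of 40 chaperone genes were higher in the knockout (35%, against 28.6% of all tested genes) and 6 were lower (15%, against 26.9%). The lower genes were Dnajb4 (-0.78), Hspa1a (-0.74), Hspa2 (-0.64), Hspa1b (-0.46), Ahsa1 (-0.22) and Hsp90aa1 (-0.18). The call of Hsp90aa1 ended without untreated wild-type replicate 3 (-0.129, adjusted p = 0.0963) and without untreated knockout replicate 2 or 4 (-0.171 and -0.153). Higher in the knockout were Bag4 (0.47), Trap1 (0.35), Stip1 (0.34), Dnajb6 (0.32), Fkbp4 and Hspa9 (0.30 each), Dnaja3 (0.29), Cdc37 (0.23), Bag2 (0.22), Cct5 (0.20), Cct7 (0.19), Hsph1 (0.18), Hspa4l (0.15) and Cct8 (0.12). Without single arrays other genes passed as higher, Cct2, Cct3, Tcp1, Hspa8, Hspd1 and Dnaja4, at values of 0.126 to 0.209. The smallest call, Cct8, did not pass without any 1 of 9 arrays, among them untreated wild-type replicate 1 (0.082, adjusted p = 0.142), and Hsph1 did not pass without untreated wild-type or knockout replicate 4 (0.144 in both). For the genes called here, 14 of 26 further probe sets were called in the same direction, 0 in the opposite and 12 were not called. Those not called include 1425993_a_at of Hsph1 (0.01), 1418503_at of Hspa9 (-0.01), and 1426645_at and 1438902_a_at of Hsp90aa1 (-0.08 and -0.07).

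With MG132, 10 of 40 genes were higher in the knockout (25%, against 30.7% of all tested genes) and 11 were lower (27.5%, against 28.1%). Lower were Dnajb4 (-1.20), Dnaja4 (-1.14), Hspa2 (-0.60), Hspa1a (-0.58), Stub1 (-0.23), Dnaja1 (-0.22), Dnajb2 (-0.21), Hsph1 (-0.19), Dnajb1 (-0.17), Bag1 (-0.16) and Ahsa1 (-0.15). Higher were Hspa4l (0.53), Bag4 (0.49), Bag2 (0.40), Hspa9 (0.24), Cct3 (0.23), Cct5 and Cdc37 (0.22 each), Stip1 (0.20), Tcp1 and Fkbp4 (0.14 each). The calls of Tcp1 and Fkbp4 ended without any 1 of 6 and of 5 treated arrays (lowest values 0.127 and 0.094), those of Bag1 and Hsph1 without treated wild-type replicate 1 (-0.106) and 3 (-0.133), and that of Bag1 also without treated knockout replicate 2 (-0.139). Without single arrays Cct7 (0.118) and Cct8 (0.1 to 0.123) passed as higher and Hsf2 as lower (-0.491). These shares lie near the background. With arrays centred on their own medians the treated counts were 17 higher and 5 lower, and the share of higher genes among all calls went from 52.3% to 63.4%. The 5 that stayed lower were Dnajb4, Dnaja4, Hspa2, Hspa1a and Dnaja1. For the genes called with MG132 without that centring, 15 of 26 further probe sets were called in the same direction, 0 in the opposite and 11 were not called.

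The cultures of both genotypes also differed in markers of cell identity. The summed signal of 13 fibroblast markers was 158400 to 185000 in untreated wild-type and 155300 to 171000 in untreated knockout cells, and 138100 to 152700 against 114800 to 120800 with MG132. Single markers differed more, with Pdgfra at 2351 in untreated wild-type and 118.3 in knockout cells, Thy1 at 227.5 and 2727, and Dcn at 38.48 and 1075 (group means). The sum of 5 neural markers was 4047 to 5350 in untreated wild-type and 671.4 to 807.6 in untreated knockout cells, mostly from Sox2 (1775 against 184.3) and Map2 (2417 against 346.3), and with MG132 it was 4725 to 5051 against 1698 to 1872. That of 8 macrophage and leukocyte markers was 759.5 to 910.3 against 1479 to 1738, mostly from Cd14 (310.5 against 1054), with the leukocyte marker Ptprc at 20.46 and 23.24, and with MG132 it was 845.4 to 1117 against 2220 to 2440. That of 7 epithelial markers was 6552 to 7565 against 4053 to 4709, mostly from Krt19 (6535 against 3904), and with MG132 8085 to 8831 against 3765 to 3966. That of 6 endothelial markers was 184.9 to 277.1 against 100.2 to 251.8 without and 161.3 to 270.6 against 283 to 431.9 with MG132, and that of 5 muscle markers lay between 242 and 536 in all groups. No marker was listed at 0, since MAS5 gives every probe set a signal above 0, and 12 of the 13 fibroblast, 4 of the 5 neural, 3 of the 8 macrophage and leukocyte and 3 of the 7 epithelial markers were bright enough to be tested. The part of these differences in the genotype results was not tested, and a difference between the lines other than CHOP cannot be told apart from the knockout.

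**Figure D5:**
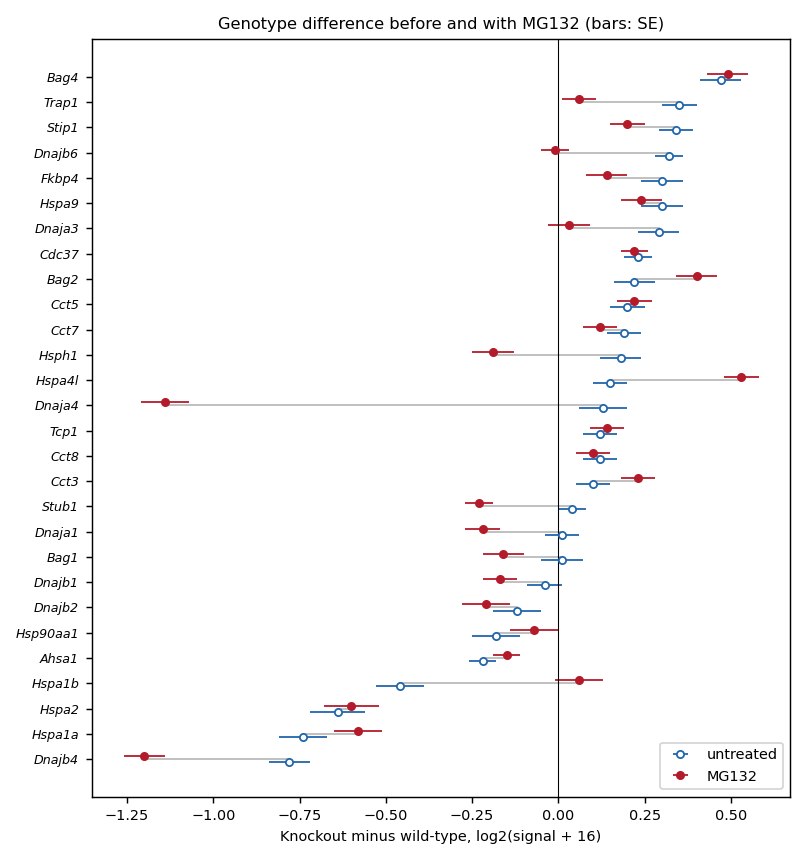
Difference between knockout and wild-type cells in log2(signal + 16), without MG132 (open blue points) and with it (filled red points), for the 28 chaperone genes that passed the test in at least 1 condition, with bars for the SE and 4 arrays per group. Dnajb4 is lower in the knockout in both conditions (-0.78 and -1.20), and Dnaja4 moves from 0.13 to -1.14.

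Genes that work beside these chaperones were counted in lists fixed by name, and each count is to be read against the 27.2% higher and 36.9% lower of all tested genes in wild-type and the 25.7% and 36.8% in knockout cells. Of 15 tested prefoldin, tubulin cofactor and chaperonin partner genes, 3 rose and 9 fell in wild-type cells (median -0.16), and 4 rose and 6 fell in knockout cells (median -0.10). Cct6a, the TRiC subunit of that list, rose by 0.26 and 0.23 (SE 0.05 each), Tbce by 0.41 and 0.25 (SE 0.08 each) and Txndc9 by 0.18 and 0.27 (SE 0.05 each). Pfdn1 and Pfdn5, subunits of the prefoldin that hands actin and tubulin to TRiC, fell by 0.49 and 0.45 in wild-type and by 0.50 and 0.57 in knockout cells. Pdcl3 gave -0.30 and -0.06 (adjusted p = 2.79e-06 and 0.197).

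Of 19 further J proteins, 4 rose and 6 fell in wild-type cells (median 0.03), against 27.2% and 36.9% of all tested genes. Dnajc2, the ribosome-bound partner of Hspa14, rose by 0.92 and 0.45 (SE 0.07 each), Dnajc18 by 0.62 in wild-type cells against -0.01 (adjusted p = 0.905) in knockout cells, and Dnajc11 by 0.30 against 0.11 (adjusted p = 0.112). Dnajc12 fell by 1.21 and 1.31, Dnajb14 by 0.71 and 1.13, and Dnajc24 by 0.58 and 0.71. In knockout cells 4 of the 19 rose and 7 fell (median 0.04).

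Among 25 further partners of HSP70 and HSP90, 10 rose and 9 fell in wild-type cells (40% and 36%, median -0.09, against 27.2% and 36.9% of all tested genes), and 10 rose and 8 fell in knockout cells (median 0.05). Ahsa2, a relative of Ahsa1, rose by 1.31 and 1.38 (SE 0.05 each), Cacybp by 0.70 and 0.59, and Nudc by 0.63 and 0.44 (SE 0.04 each). Nudcd3 fell by 0.88 and 0.35, Ttc5 by 0.98 and 0.54, and Pih1d1 by 0.47 and 0.55. Bag3, the BAG protein that works with small heat shock proteins, rose by 1.15 and 1.54 (SE 0.13 each).

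The small heat shock proteins, which hold unfolded proteins without ATP, had 6 tested genes, of which 3 rose and 1 fell in wild-type and 3 rose and 2 fell in knockout cells. Hspb1 rose by 3.85 and 2.65 (SE 0.06 each) and Cryab by 2.31 and 1.81 (SE 0.05 each), differences of -1.20 (SE 0.08) and -0.50 (SE 0.08). Hspb8 rose by 1.93 and 1.12 (SE 0.06 each), and Hspb6 fell by 0.82 and 1.00 (SE 0.07 each).

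Among 15 tested genes of mitochondrial folding, import motor and proteases, 7 rose and 5 fell in wild-type cells, against 27.2% and 36.9% of all tested genes, and 6 rose and 5 fell in knockout cells, against 25.7% and 36.8%. Lonp1, a matrix protease, rose by 1.17 and 0.76 (SE 0.06 each), Grpel1, the nucleotide exchange factor of Hspa9, by 0.48 and 0.49 (SE 0.04 each), and Clpp by 0.41 against 0.01 (adjusted p = 0.871). Timm44, Htra2 and Dnajc15 fell in both genotypes, by 0.61, 0.36 and 0.29 in wild-type cells. A last list held further heat shock factors and genes that act on heat shock factors. Of its 8 tested genes, 2 rose and 3 fell in wild-type cells (median -0.04, against 27.2% and 36.9% of all tested genes). In knockout cells 4 rose and 2 fell (median 0.19, against 25.7% and 36.8%). Sirt1, a deacetylase that acts on Hsf1, rose by 0.79 and 1.04 (SE 0.07 each) and Ranbp2 by 0.61 and 0.60 (SE 0.11 each). Yap1 fell by 0.50 and 0.18, and Hsbp1, a binding protein of Hsf1, by 0.18 and 0.30 (SE 0.05 each). Ep300 fell by 0.24 in wild-type cells and rose by 0.20 in knockout cells (SE 0.08 each).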

How the data were processed

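The authors deposited MAS5 signal intensities, linear and without detection calls, for 45101 probe sets on 16 arrays of biotin-labelled total RNA, per the labels. No source used here gives the version of MAS5 or how it was set. In each deposited column the mean after trimming 2% at each end was 1000. Each gene was represented by its brightest single-gene probe set (34958 of the probe sets name 1 gene, 932 several and 9211 none in the platform annotation), and tested where it lay above the array median on at least 4 arrays. limma 3.58.1 in R 4.3.3 was fitted to log2(signal + 16) with 1 mean per group over all 16 arrays (12 residual and 7.65 prior degrees of freedom, mean-variance trend), for 5 contrasts, two-sided, with BH adjustment over 11452 genes. The procedure was tested on simulated data. The same fit was run over all single-gene probe sets. The number of arrays limits the precision.

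The genes and lists were chosen with earlier results of these data known. All 43 genes are named. Values on every array are given for the largest change of each class, Hspa1a, Hspa1b, Hsf2, called differences of responses of at least 0.5 and genes against their class, and for the other called differences, which were added after their values were seen. From related lists, up to 3 genes with the smallest adjusted p in wild-type cells are named per direction, with Bag3, Hspb1 and Cryab.

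Replicate numbers were not used to pair the arrays in the main fit. Same-numbered arrays of different groups deviated together with correlations of -0.07 to 0.16 (median 0.04, 5 of 24 above 0.1). For arrays with different numbers these were -0.17 to 0.13 (median -0.02, 5 of 72 above 0.1). Whether the numbers mark a weak pairing was not tested. Alternatives covered the pseudocount, filter, normalisation, probe set, variance model, samples fitted, replicate block and leaving out each array.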

Additional observations from a re-analysis of the deposited data

Results flagged for a closer look

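Among 160 groups of 4 arrays (40 genes in 4 groups), 4 held an array far from the other 3, and chance alone would give about 1 in 20, or 8. Cct8 gave 22410 on treated wild-type replicate 3 and 20990 to 21120 on the others. Dnaja3 gave 2182 on untreated wild-type replicate 1, against 2345 to 2360. St13 gave 11620 on untreated knockout replicate 1, against 10120 to 10300. Ahsa1 gave 10640 on untreated wild-type replicate 1, against 11720 to 11800. All 4 gaps are smaller than the responses of these genes.

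For 10 genes the responses to MG132 differed between the genotypes in the interaction test of limma (knockout minus wild-type). They were higher in the knockout for Hspa1b (0.52, adjusted p = 0.000261) and Hspa4l (0.37, adjusted p = 0.000247). They were lower for Dnaja4 (-1.27, adjusted p = 2.66e-08), Dnajb4 (-0.41, adjusted p = 0.000852), Hsph1 (-0.36, adjusted p = 0.00277), Dnajb6 (-0.33, adjusted p = 0.000234), Trap1 (-0.29, adjusted p = 0.00614), Dnaja3 (-0.26, adjusted p = 0.0199), Stub1 (-0.26, adjusted p = 0.00321) and Dnaja1 (-0.23, adjusted p = 0.02). The difference of Dnaja4 stayed past the threshold under every alternative run and in all 3 of its probe sets.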

How the results depend on the processing

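The counts of higher chaperone genes in the wild-type and knockout responses stayed within 1.5 times under every alternative run. Quantile normalisation gave 4 genes with a higher knockout response. Centring on array medians gave 2 with a lower one, and 17 higher and 5 lower genes in treated knockout cells. Centring on the median of the tested genes, added after seeing the data, left 1 fall in wild-type cells and turned Stub1 there (0.191). The mean of all probe sets left 0 falls in wild-type cells and 1 higher knockout response, and leaving out suffixed probe sets left 1, 1 and 1 of the falls in wild-type cells, the falls in knockout cells and the higher knockout responses. Quantile normalisation turned Tcp1 (-0.073) and Cct3 (-0.056) in wild-type cells. The mean of all probe sets turned Cct8 (-0.183) and Fkbp4 (-0.001) in untreated knockout against wild-type cells, and Hspa4 (-0.612), Dnajb6 (0.198), Cct4 (-0.319) and Fkbp4 (-0.1) in treated cells. Without suffixed probe sets the difference of responses of Hspa8 turned (-0.447), as did St13 (-0.1) and Fkbp4 (-0.024) untreated and Cct3 (-0.328) and Fkbp4 (-0.242) treated. The cause was not tested. Leaving out single arrays gave 31 to 35 rises and 2 to 3 falls in wild-type cells, 31 to 33 and 3 to 5 in knockout cells (5 without untreated wild-type replicate 1), 2 to 3 higher and 8 to 9 lower responses, 12 to 19 and 5 to 6 in untreated, and 8 to 12 and 10 to 12 in treated cells. The replicate block gave 34 and 2, 32 and 4, 2 and 8, 17 and 6, and 12 and 11, in the same order. With it Dnajb5 fell in knockout cells (-0.513), Tcp1, Cct2 and Cct3 were higher in untreated knockout cells (0.12, 0.128 and 0.103), and Cct7 and Cct8 in treated ones (0.118 and 0.1), and it changed no other call. Signals carry no detection call, so the limit of detection is unknown here.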

Other observations

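Some partner genes also responded differently in the genotypes, and they are named here after their values were seen. Grpel2, the second nucleotide exchange factor of Hspa9, rose by 0.39 in wild-type and 0.96 in knockout cells (SE 0.06 each), a difference of 0.57 (SE 0.09, limma adjusted p = 5.65e-05), whereas Grpel1 rose by 0.48 and 0.49. Pam16, a part of the import motor, rose by 0.28 in wild-type cells and fell by 0.22 in knockout cells (SE 0.05 each), a difference of -0.49 (SE 0.08, adjusted p = 6.99e-05). The matrix proteases Lonp1 and Clpp had lower responses in the knockout, by -0.41 (adjusted p = 0.00206) and -0.40 (adjusted p = 0.000812). Nudcd3, a partner of HSP90, fell less in knockout cells, a difference of 0.53 (SE 0.08, adjusted p = 4.69e-05).

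Among the further J proteins, Dnajc18 had a difference of -0.63 (SE 0.10, adjusted p = 8.4e-05), from 856.7 to 1321 in wild-type and from 840.7 to 834.5 in knockout cells. Dnajc2 had one of -0.47 (SE 0.09, adjusted p = 0.000724) and Dnajb14 one of -0.42 (SE 0.11, adjusted p = 0.00636). Of all 19, 3 were lower and 2 higher in this comparison, against 14.1% and 14.2% of all tested genes.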
